A study of Mus musculus with 2 samples.

Results

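Rn45s encodes the precursor of the ribosomal RNAs and Rpph1 encodes the RNA subunit of RNase P. Read clusters from FLAG and HA immunoprecipitates of cells making epitope-tagged or untagged FAM120A were taken where they lay inside a fixed window of either RNA, on its own strand, in mouse build mm9. The Rn45s window was chromosome 17, plus strand, positions 39979500 to 39986000, and the Rpph1 window was chromosome 14, minus strand, positions 51427000 to 51427500. The windows held 44 of the 12804 deposited clusters. Of these, 16 of 11670 were in the list of the tagged library and 28 of 1134 in the list of the untagged library. Rn45s held all 16 tagged-list clusters and 24 untagged-list clusters, and Rpph1 held 4 untagged-list clusters and 0 tagged-list clusters. The windows were chosen after small differences between the libraries had been seen there, so counts, reads and ratios inside them are descriptions and carry no test.

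The study used iCLIP, in which ultraviolet light crosslinks protein to RNA in living cells, the protein is immunoprecipitated, and the attached RNA fragments are sequenced. Both lines were mouse embryonic stem cells carrying a Fam120a gene under doxycycline control, delivered with the pSLIK lentivirus and induced with doxycycline at 2.5 µg/mL. TT-FHFam120a made the protein with FLAG and HA epitopes and TT-Fam120a made it without them, and both lysates went through FLAG and then HA immunoprecipitation, so the untagged library held RNA recovered with no epitope present. There was 1 library per group, and whether a line was 1 clone is not given in the sources used here. The state of the endogenous Fam120a gene is likewise not given, and stem cell markers were not analysed here because the lists carry no gene names.

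The ribosomal RNA precursor is made by RNA polymerase I in the nucleolus. Its external and internal spacers are cut away and degraded, while the mature RNAs are kept in ribosomes and are among the most abundant RNAs of any cell. The gene occurs in many near-identical copies, so reads placed on chromosome 17 can come from other copies, and the authors' rule for reads with several matches is not given in the sources used here. RNase P removes the 5′ leaders of transfer RNA precursors, and its RNA subunit, made by RNA polymerase III, folds into a compact catalytic structure. Both RNAs are present with or without an epitope. In these bulk samples, more of an RNA in the cells and better recovery of it cannot be told apart.

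Each deposited cluster gives its reads in its own library, a log2 fold between its own and the other library with 1 added to both counts, and a p-value. The reads of the other library were worked out from the ratio and the p, with reads of the untagged library multiplied by a depth factor of 1.501, or reads of the tagged library divided by it. A depth-adjusted ratio is the own reads over the other library's reads after this scaling. Its 95% interval is an exact binomial one and covers counting error only. Library totals are unknown. For the untagged list the unscaled tagged reads are approximate, since the scaled number is a rounded one.

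Along Rn45s the 2 lists occupied different stretches of the RNA. A cluster enters only the list of the library with more reads after scaling, so this split depends on the depth factor. Of the 16 tagged-list clusters, 15 lay between positions 39979930 and 39983347 and 1 lay at 39985420 to 39985445. Between them, positions 39983396 to 39985124 held 22 of the 24 untagged-list clusters and 0 tagged-list clusters. This 1729 nt stretch is called the block here. The other 2 untagged-list clusters lay upstream of it, at 39982034 to 39982097 and 39982295 to 39982342. The 22 clusters covered 719 nt of the block, or 41.6%, with gaps of 1 to 158 nt between neighbours.

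The block was also where both libraries had most reads. In the untagged library the 22 block clusters had 2534 to 10600 reads with a median of 5405, while the 18 clusters outside it had 3 to 160 unscaled reads with a median of 66. In the tagged library the block clusters had about 3138 to 11780 unscaled reads with a median of 6462, and the clusters outside it had 20 to 339 with a median of 134. The ranges inside and outside the block did not overlap in either library. The ratio of the medians was 81.9 in the untagged library and 48.2 in the tagged library. Restricted to clusters of 26 nt, 17 inside and 9 outside, it was 83.1 and 41.9.

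**Figure D1:**
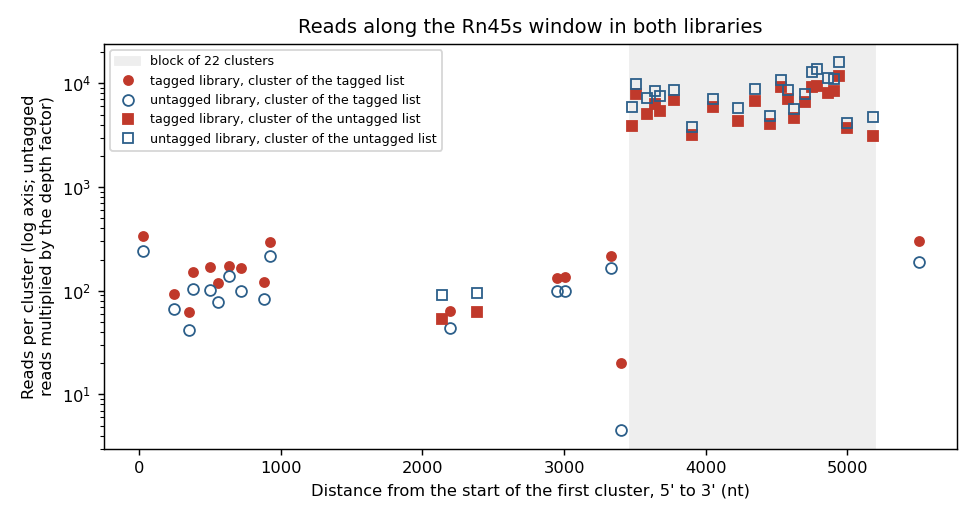
Reads per cluster (log axis) along the Rn45s window against distance in nt from the start of the first cluster, for all 40 clusters in the tagged library (filled red) and in the untagged library after multiplication by the depth factor (open blue). Circles are tagged-list and squares untagged-list clusters, and the shaded block of 22 clusters stands above all 18 others in both libraries.

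The step into the block was abrupt in both libraries. The last cluster upstream of it, at 39983322 to 39983347, had 20 tagged reads and 3 unscaled untagged reads. The first cluster of the block, at 39983396 to 39983421 after a gap of 48 nt, had 3919 untagged reads and about 3917 unscaled tagged reads. At the far end, the cluster at 39985099 to 39985124 had 3160 untagged and about 3138 unscaled tagged reads. The cluster after it, across a gap of 295 nt, had 304 tagged and 125 unscaled untagged reads.

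RefSeq's gene table for the later build GRCm38.p6 lists on chromosome 17 a pseudogene named Rn18s-rs5, of the kind derived from the small-subunit ribosomal RNA, with a length of 1849 nt. Positions were not carried between the builds, so the block of 1729 nt is not assigned to a mature RNA or a spacer here. Rpph1 is listed in the same table on chromosome 14 as an RNase P RNA of 325 nt.

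In the stretch upstream of the block, tagged-list clusters were numerous and most of their ratios were small. The first 10 lay within 939 nt, at 39979930 to 39980868, with 62 to 339 tagged reads each. The cluster with most reads, at 39979930 to 39979979, had 339 reads in the tagged library and 160 in the untagged library before scaling, which gave a depth-adjusted ratio of 1.41 (1.17 to 1.71). The cluster at 39980843 to 39980868 had 298 against 143, a ratio of 1.39 (1.13 to 1.71). Both ratios are small against the differences in reads along the RNA. Among these 10, the highest ratios were at 39980420 to 39980445 and at 39980599 to 39980694. The former had 171 against 67 reads, a ratio of 1.70 (1.27 to 2.29), and the latter 167 against 66, a ratio of 1.69 (1.26 to 2.28). The cluster at 39980554 to 39980579 had 175 against 93, the lowest ratio of the 16, at 1.25 with an interval of 0.969 to 1.63 that includes 1.

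A mixed stretch followed. At 39982034 to 39982097 an untagged-list cluster had 60 untagged reads against about 53 unscaled tagged reads, a ratio of untagged to tagged of 1.71 (1.16 to 2.51), the highest of the 24. Next to it, 17 nt downstream, the tagged-list cluster at 39982115 to 39982140 had 64 tagged reads and 29 unscaled untagged ones, a ratio of 1.47 the other way (0.934 to 2.37). At 39982295 to 39982342 an untagged-list cluster had 63 untagged against about 62 unscaled tagged reads, a ratio of 1.54 (1.06 to 2.20). Neighbouring clusters of similar depth thus stood in opposite lists.

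Nearer the block, the clusters at 39982857 to 39982899 and at 39982918 to 39982960 had 132 and 136 tagged reads, each against 66 unscaled untagged reads, with ratios of 1.33 and 1.37. The cluster at 39983236 to 39983283 had 218 against 111, a ratio of 1.31 (1.04 to 1.66). The cluster of 20 reads against 3 had the highest ratio of the tagged list here, 4.44, but its interval ran from 1.32 to 23.3 because so few reads support it. Downstream of the block, the cluster of 304 against 125 reads had a ratio of 1.62 (1.31 to 2.01) and the lowest p that the authors listed for a tagged-list cluster in the window, 9.56e-08.

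Over the 16 tagged-list clusters the median depth-adjusted ratio was 1.44, with a nominal 95% interval of 1.37 to 1.62 from order statistics. That interval treats the clusters as separate draws. They are stretches of 1 RNA in 1 pair of libraries, listed on this same ratio, so it describes their spread only. The listed log2 ratio was under 1 for 15 of the 16, against 3.19% of the tagged list. At 40 to 200 reads it was under 1 for 11 of 11 members and for 218 of 698 other tagged-list clusters, or 31.2%. The 95% interval of the ratio included 1 for 5 of the 16, against 53.8% of the tagged list, where most clusters have far fewer reads. Among other tagged-list clusters of 20 to 339 reads, the range of the members, it included 1 for 210 of 1962, or 10.7%. These others were shallower, with a median of 33 reads against 143 for the members. At 40 to 200 reads the interval included 1 for 5 of 11 members and for 77 of 698 others, or 11%. The share at Rn45s was thus below that of the whole list and above that of other clusters in either range of reads.

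All 22 block clusters are from the untagged list, so the listing rule fixes that the untagged library exceeds the scaled tagged library at each. The ratios were small and their counting intervals narrow. The cluster with most reads, at 39984861 to 39984886, had 10600 untagged reads against 7849 scaled tagged reads, a ratio of 1.35 (1.32 to 1.39). The cluster at 39984701 to 39984726 had 9076 against 6257, a ratio of 1.45 (1.41 to 1.49) and the lowest p of the untagged list's clusters here as the authors listed it, 1.37e-115. The clusters starting at 39984670, 39984757 and 39984825 had 8549, 7540 and 7330 untagged reads, with ratios of 1.39, 1.39 and 1.32. A very low p therefore went with a ratio under 1.5 because the counts were high.

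The ratio differed between clusters of the block, and whether by more than chance was not tested. The lowest, 1.10 (1.05 to 1.16), was at 39984915 to 39984940, with 2746 untagged against 2489 scaled tagged reads. For this cluster 15 whole numbers of tagged reads gave back the listed values, from 2482 to 2496, which leaves the ratio between 1.10 and 1.11. The highest, 1.51 (1.44 to 1.59), was at the neighbouring cluster 158 nt downstream, with 3160 against 2091, and the intervals did not overlap. By position, the first 5 clusters, up to 39983619, had ratios of 1.26 to 1.5, the next 10, from 39983693 to 39984649, had 1.17 to 1.33, and the 5 from 39984670 to 39984886 had 1.32 to 1.45. These stretches were set after the values were seen. The lowest and highest ratios were likewise picked after the values were seen, from clusters listed on this same ratio. Neighbouring clusters may share reads. The intervals count each read as separate, and reads are not known to be separate molecules, so they may be too narrow.

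**Figure D2:**
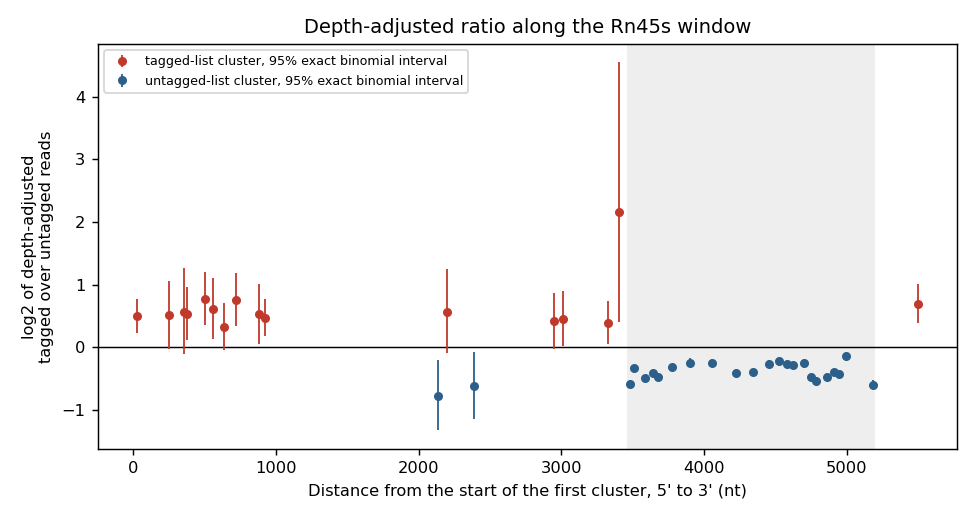
log2 of depth-adjusted tagged over untagged reads for the 40 Rn45s clusters against distance in nt from the start of the first cluster, with exact binomial 95% intervals. Points above 0 are tagged-list clusters (red) and points below 0 untagged-list clusters (blue), and the intervals in the shaded block are narrow beside those of the shallower clusters upstream.

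The listing rule sets which ratios can appear at a given depth. At 5405 own reads, the block's median, an authors' one-sided p under 0.05 needs a ratio of at least 1.03. At 136 reads, the median of the 15 upstream tagged-list clusters, it needs at least 1.25. Clusters with ratios nearer to 1 were not listed, so the empty band around a ratio of 1 follows from the rule. The lists therefore do not show how much of Rn45s was recovered equally from both lines.

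The direction inside the block depended on the depth factor. Before scaling, the tagged library had more reads than the untagged library at 20 of the 22 block clusters, with a median ratio of tagged to untagged reads of 1.14 and a range of 0.993 to 1.36. An unscaled ratio under 1 was found for 20 of the 24 Rn45s clusters and 2 of the 4 Rpph1 clusters of the untagged list, against 16.7% of that list. At similar depth this was common elsewhere too: it held for 15 of the 16 other untagged-list clusters of at least 1000 reads, beside 20 of 22 in the block, and for 102 of 310 others of 40 to 200 reads, beside 2 of the 6 remaining members. No tagged-list cluster, in the window or elsewhere, changed direction this way, since the factor only lowers tagged-list ratios. Estimated from clusters outside the windows, the factor had the same range, 1.5 to 1.502. The recovered untagged reads at 16 of the 16 tagged-list clusters were rounded multiples of it. For 1 of these, with 2 possible numbers, the multiple had been taken, so it fits by construction. Many whole numbers are rounded multiples of such a factor anyway, so the check is a weak one. No such check was possible for the untagged list, where every whole number can arise from the scaling.

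Reads of the 2 libraries ran in parallel along Rn45s. Over the 40 clusters the log2 unscaled reads had a Pearson r of 0.993 and a Spearman rho of 0.989. Within the 22 block clusters r was 0.975, and over the 18 others it was 0.890. These are descriptions: the points are neighbouring stretches of 1 RNA, may share reads, and were listed on the ratio of the same reads.

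Rpph1 clusters lay over 255 nt, from 51427173 to 51427427, and covered 168 nt of it. Read 5′ to 3′ on the minus strand, the first, at 51427338 to 51427427, had 77 untagged reads against about 74 unscaled tagged reads, a ratio of untagged to tagged of 1.57 (1.12 to 2.18). The next, at 51427296 to 51427321, had 55 against about 56, a ratio of 1.49 with an interval of 0.997 to 2.18 that includes 1. The third, at 51427254 to 51427279, had the fewest reads, 48 against about 36, and the highest ratio, 2 (1.27 to 3.17). The last, at 51427173 to 51427198, had the most reads, 104 against about 111, and the lowest ratio, 1.41 (1.07 to 1.85). The interval included 1 for 1 of the 28 untagged-list clusters in the windows, this one at 51427296, against 8.02% of the untagged list. At 40 to 200 reads it included 1 for 1 of 6 members and for 33 of 310 others, or 10.6%. At 1000 reads or more it did so for 0 of 22 members and 1 of 16 others. The 4 Rpph1 intervals overlapped one another, and the order of the 4 ratios was not tested. The median ratio was 1.53, and the authors' listed p ran from 0.0032 to 0.0379.

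**Figure D3:**
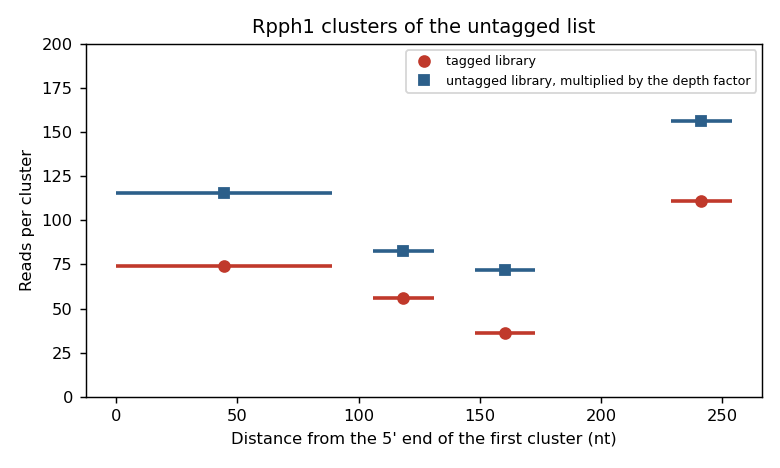
Reads per cluster at the 4 Rpph1 clusters against distance in nt from the 5′ end of the first, in the tagged library (red circles) and in the untagged library after multiplication by the depth factor (blue squares), with lines spanning each cluster. The untagged level lies above the tagged level at all 4, as their list requires. Both libraries have their fewest reads at the third cluster and their most at the last.

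The Rpph1 clusters had read counts like those of Rn45s outside the block and far below those inside it. In the untagged library, the 4 had 48 to 104 reads, and the 2 untagged-list clusters upstream of the block had 60 and 63. All 6 had ratios between 1.41 and 2. The listed log2 ratio was under 1 for each of the 28 untagged-list clusters in the 2 windows, against 34.3% of the untagged list. Other clusters with many reads shared this. It held for 16 of the 16 other untagged-list clusters of at least 1000 reads. At 40 to 200 reads it held for 227 of 310 others, and for 24 of the 26 of these named only by the authors' class C2.

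Set beside clusters in the same range of reads, the tagged-list members had low ratios. The medians of the untagged-list members lay close to those of other clusters. Among tagged-list clusters of 20 to 339 reads, the median listed log2 ratio was 0.52 for members and 2.91 for the 1962 others. Of these others, 346 (17.6%) were under 1. The 1104 of them named only by regions of the authors' class C2, the class of every tagged-list member, had a median of 3.45. Depth was not matched within this range, since the members had a median of 143 reads and the others 33. At 40 to 200 reads, the median log2 ratio was 0.52 for 11 members and 2.76 for 698 others, with medians of 132 and 60 reads. The 352 C2 clusters among those 698 had a median of 3.78. Among untagged-list clusters of at least 1000 reads, the median was 0.40 for the 22 block clusters and 0.34 for the 16 others. At 40 to 200 reads it was 0.63 for the other 6 members and 0.70 for 310 others. The differences have no test, since the windows were chosen on these values.

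**Figure D4:**
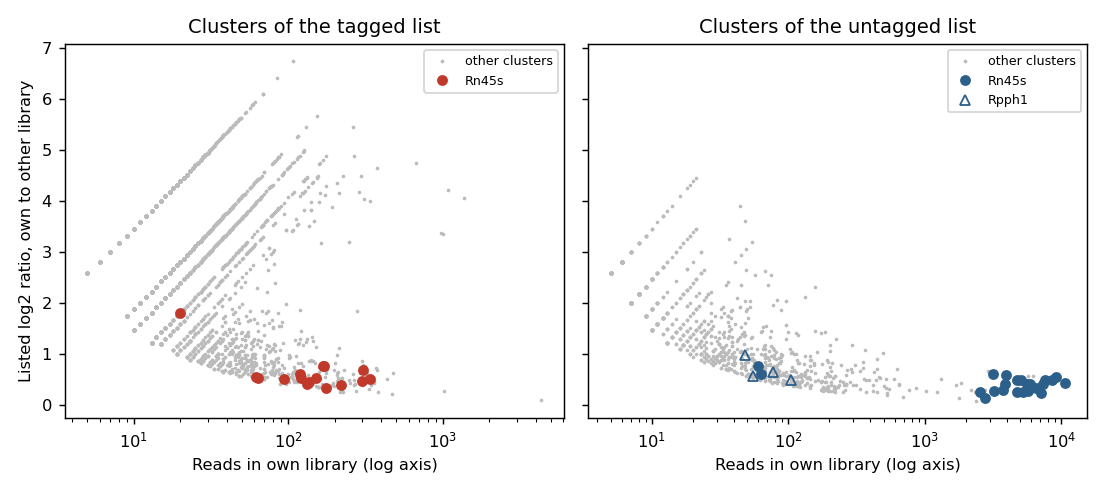
Listed log2 ratio against reads in the own library (log axis) for every tagged-list cluster (left) and untagged-list cluster (right), with Rn45s (filled circles) and Rpph1 (open triangles) over all other clusters in grey. Tagged-list members lie along the lower edge of their list apart from the cluster of 20 reads, and the block clusters lie at the deep end of the untagged list.

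The block made up most of the deepest part of the untagged list. It supplied 9 of the 10 untagged-list clusters with most reads and 22 of the 38 with at least 1000. The deepest untagged-list cluster outside the windows had 6250 reads. In the tagged list, the Rn45s cluster with most reads, 339, ranked 18 by reads.

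The other library had reads at all members. At 16 of the 16 tagged-list clusters the untagged library had at least 1 read. The share was 30.1% over the tagged list and 83.6% over the other tagged-list clusters of 20 to 339 reads. At 40 to 200 reads the untagged library had reads at 11 of 11 members and 660 of 698 others, or 94.6%. The unscaled untagged reads had a median of 66 at the 16 members and 2 at the others of 20 to 339 reads. At 40 to 200 reads these medians were 66 and 6. The tagged library had at least 1 read at 28 of the 28 untagged-list members, against 87.6% of the untagged list. It also had reads at each of the 310 other untagged-list clusters of 40 to 200 reads and the 16 others of at least 1000, so the members did not differ from these.

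Reads within members were spread over several positions. The share of a cluster's reads at its highest position had a median of 32.3% over the 16 tagged-list clusters, 19.9% over the 24 untagged-list clusters of Rn45s and 34.2% over the 4 of Rpph1. At most 50% of the reads lay at the highest position in 14 of the 16 tagged-list members, against 66.8% of the tagged list and 83.3% of the 1104 other C2 clusters of 20 to 339 reads in it. The exceptions were the cluster of 20 reads next to the block, at 70%, and the cluster at 39980296 to 39980321, at 56.7%. In the untagged list 28 of 28 members had at most 50% there, against 15% of that list. Among other untagged-list clusters of at least 1000 reads, 13 of 16 did so too. At 40 to 200 reads, 40 of 310 others did, or 17 of the 26 of class C2. The block cluster with the most even reads had 8.09% at its highest position and the least even 39.4%.

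**Figure D5:**
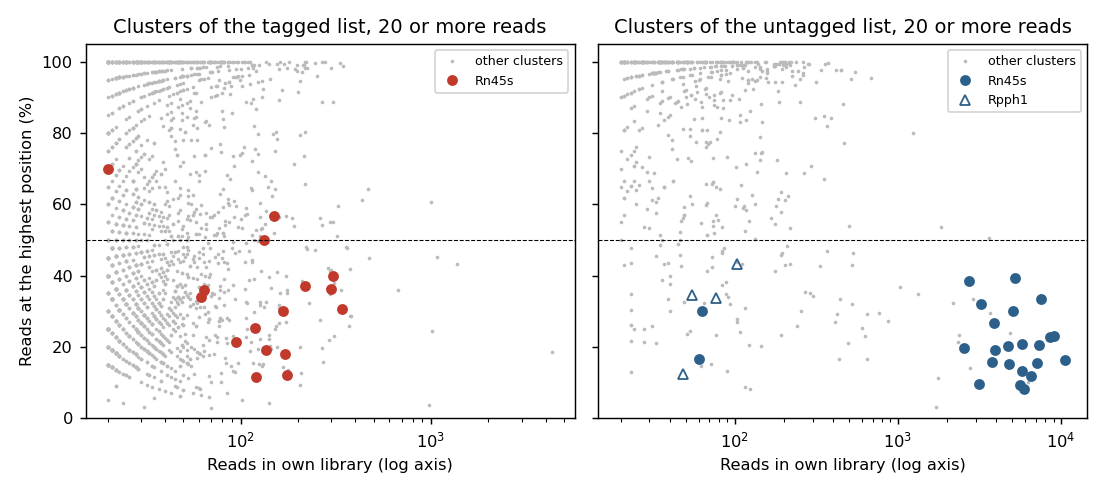
Percent of a cluster's reads at its highest position against reads in the own library (log axis) for clusters of 20 or more reads, in the tagged list (left) and the untagged list (right), with the dashed line at 50%. All untagged-list members lie under the line, as do 13 of the 16 other untagged-list clusters of at least 1000 reads.

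Members were named almost entirely by class C2, which the sources used here do not explain. All 16 tagged-list members were named only by C2 regions, against 42% of the tagged list and 56.3% of its other clusters of 20 to 339 reads. In the untagged list 26 of 28 members were, against 9.61% of that list. Deep clusters elsewhere shared this, with 14 of the 16 others of at least 1000 reads beside 20 of 22 in the block. At 40 to 200 reads it was 26 of 310 others beside 6 of 6 members. The 2 untagged-list members not named by C2 lay in the block, at 39983693 to 39983718 and 39983820 to 39983845. They were named by class B and had ratios of 1.25 and 1.19, inside the range of the block.

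Mitochondrial RNA was set beside Rn45s as another abundant class of RNA. The plus strand of chrM held 49 tagged-list and 5 untagged-list clusters, where Rn45s held 16 and 24. The median listed log2 ratio of those 49 was 1.70, and 12 of them were under 1, against 0.52 and 15 of 16 at Rn45s. The chrM clusters were shallower, with medians of 21 tagged and 3 unscaled untagged reads against 143 and 66 at Rn45s, and 9 of the 49 had 0 untagged reads. Since the listing rule admits small ratios at deep clusters only, the ratios of the 2 RNAs are not compared at equal depth. The 5 untagged-list clusters of chrM had depth-adjusted ratios of 1.32 to 1.54, within the range at Rn45s. These values were not tested against each other.

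The window edges did not decide the counts. The members reached no closer than 430 nt to the edges of the Rn45s window and 73 nt to those of the Rpph1 window. The nearest clusters outside on the same strand lay 1523 and 3203 kb from the Rn45s window and 1205 and 1116 kb from the Rpph1 window. All 4 were tagged-list clusters, with 15 to 81 reads and listed log2 ratios of 0.96 to 1.19. There were 0 clusters on the opposite strand within 1000 nt of either window.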

How the data were processed

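The authors deposited 1 list of read clusters per library, on build mm9 per the submitters' processing notes. Which aligner, cluster caller or duplicate handling was used is not given in the sources used here. The lists have no header. Read from the values, the deposited columns hold the read count at the highest position and, joined together, the cluster's read count, a log2 ratio with 1 added to reads, and a one-sided exact binomial p-value at an even split. Other-library reads are the whole number giving back the log2 ratio (tolerance 0.006) and the p (0.0001, or 0.001 in relative terms below that), found for every cluster. 2 members had several such numbers. In the tagged list the multiple of the depth factor was taken, and otherwise the number closest to the listed p. Computations used Python 3.11.15 and scipy 1.17.1. Only the recovery of other-library reads was tested on simulated data.

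Members, windows and comparisons were chosen with earlier results of these data known. Every cluster in a window was kept. Where a window held over 10 clusters of a list, those with most reads, the lowest p and the extreme ratios were described in full. The alternatives were other windows, a p limit of 0.01, merging of clusters within 50 nt, other forms of the ratio and a minimum of 20 reads.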

Additional observations from a re-analysis of the deposited data

How the results depend on the processing

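With 1 library per group there was no replicate check. No paired analysis was possible because neither line had a second library. Of 39 alternatives, 32 left a count within 1.5 times its value or a median inside its order-statistic interval, which describes spread among clusters only. Some of these 32 could not move by construction, such as a minimum of 20 reads that every member met. Without the depth factor the median ratio of the Rn45s untagged-list clusters reversed, from 1.32 to 0.881 untagged over tagged, the Rpph1 median fell to 1.01, and the Rn45s tagged-list median rose to 2.17. Merging clusters within 50 nt left 8 tagged-list and 10 untagged-list clusters at Rn45s and 2 at Rpph1. A p limit of 0.01 left 2 Rpph1 clusters. Rpph1 had no tagged-list ratio or share to vary. Alternatives added after the data were seen, 5 in all, left the Rn45s median at 1.44 in the tagged list (the ends of the factor's range, or without 1 of 2 clusters) and at 1.32 in the untagged list without its 2 upstream clusters. Binomial intervals cover counting error only, since there was 1 library per group. They may be too narrow, because reads are not known to be separate molecules.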

Other observations

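Names of class C2 clusters carry running numbers, which were compared with position after the data were seen. Outside the windows, consecutive C2 numbers named in the tagged list lay within 1000 nt of each other in 3758 of 4374 pairs. In 3758 of these 3758 the higher number lay at the higher position or at the same position. Numbers joined in the name of the same cluster share its position and count as such pairs. These ties meet both conditions by construction and were not counted apart, so the order of separate clusters is not shown. The 4374 pairs were taken for having consecutive numbers, so they do not show how often numbers are absent elsewhere. That share was not worked out. At Rn45s the numbers had breaks inside some runs, which are therefore not shown to be particular to it. Over the first 939 nt of tagged-list clusters, 18 of 29 consecutive numbers were named in the list. Between 39982857 and 39983283, 6 of 15 were named, and the 9 absent numbers fell in the 275 nt gap between 2 listed clusters. In the block, the run from 39984264 to 39985124 had 17 of 24 numbers, and the 7 absent ones fell together in its widest gap, of 158 nt, just before the cluster with the block's highest ratio. Other runs in the block were complete or nearly so, with 6 of 7 numbers at 39983396 to 39983619 and 3 of 3 at 39984122 to 39984189. Upstream of the block the untagged-list run at 39982034 to 39982342 had 5 of 12. At Rpph1, 7 of 7 numbers were named. Whether an absent number stands for a cluster that missed the listing rule or for something else is not given in the sources used here and was not tested.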
